A study of Mus musculus with 10 samples.

Results

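The 10 genes described here are signalling components and feedback inhibitors of the JAK-STAT pathway: the kinases Jak1 and Jak3, the transcription factors Stat3, Stat4, Stat5a, Stat5b and Stat6, and the inhibitors Cish, Socs1 and Socs3. They were chosen by symbol from the 22553 Ensembl genes of the count table, and all 10 passed the filter on low counts that 11990 genes passed. Regulatory T cells (Treg) with YFP fluorescence were sorted from spleen and lymph nodes of C57BL/6 female littermates, and their polyadenylated RNA was sequenced. KO libraries (n = 3) came from Tfamfl/flFoxp3Yfp-Cre/+ mice, in which Cre acts on both copies of Tfam, the gene of a protein that packages and transcribes mitochondrial DNA. Ctrl libraries (n = 3) came from Tfamfl/+Foxp3Yfp-Cre/+ mice, so that Ctrl cells carry the same Cre and YFP and can lose 1 Tfam copy. No source used here gives the ages of the mice. Each library pooled Treg of 2 to 3 mice. Foxp3 drives the Cre, and it lies on the X chromosome, so each of these heterozygous females also keeps Treg without Cre, which the YFP sort leaves out.

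The cytokine receptors of T cells that signal through JAK kinases have no kinase of their own. When a cytokine joins the receptor chains, the JAK kinases bound to them phosphorylate the receptor, STAT proteins dock there and are phosphorylated in turn, and paired STATs enter the nucleus and bind DNA. JAK1 and JAK3 serve the receptors that share the common gamma chain, among them the IL-2 receptor. IL-2 acting through STAT5 keeps Treg alive and maintains Foxp3. CIS, the product of Cish, and the SOCS proteins are induced by STATs and shut the signal down, so their mRNA is often read as a sign of recent signalling. The activity of STAT proteins is set by phosphorylation, which an mRNA count does not measure.

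Sequencing depth was 19087757 to 23794028 counts in genes per KO library and 21419772 to 27490253 per Ctrl library. Levels are given as CPM, read counts scaled to library size with TMM factors. Tfam itself stood at 15.6, 14.4 and 16.5 CPM in KO replicates 1 to 3, against 25.9, 30.6 and 42.4 CPM in Ctrl replicates 1 to 3 (log2 fold change -1.09 ± 0.17, adjusted p = 0.02, edgeR), so no library went against its label. Counts cover the whole gene, including exons outside the deleted part. The Tfam call was lost without KO replicate 1, 2 or 3 or without Ctrl replicate 2 (adjusted p = 0.109, 0.0866, 0.0844 and 0.0551) and without both libraries numbered 2 (0.123). Treg markers were present in every library, with Foxp3 between 783 and 873 CPM in KO and between 688 and 854 CPM in Ctrl. Of 7 Treg and T cell markers tested 0 were called. Their median log2 fold change was -0.11, with 5 fitted below 0 and 2 above, Foxp3 (0.14 ± 0.10) among the latter. With the replicate number as a block edgeR called 1 of the 7 lower, Ctla4 (named after its values were seen), and DESeq2 called 0. The summed level of 11 red pulp macrophage and monocyte markers was 547, 1290 and 473 CPM in KO replicates 1 to 3 and 430.1, 906 and 488 CPM in Ctrl replicates 1 to 3, highest in both libraries numbered 2.

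None of the 10 genes passed the test for a difference between KO and Ctrl Treg. In edgeR's quasi-likelihood test 0 of 10 were called lower and 0 higher at an adjusted p under 0.05, where over all 11990 genes 1.39% were called lower and 0.1% higher (1.49% in all). None had an unadjusted p under 0.05, and DESeq2, limma-voom and edgeR with the replicate number as a block also called 0 of the 10. Over all genes DESeq2 called 2.2% lower and 0.634% higher, and the block called 4.39% lower and 1.97% higher. The groups overlapped for all 10. Over all tested genes the KO libraries lay wholly below the Ctrl libraries in 10.4% and wholly above in 8.63%. Against these shares and the shares called, 0 of 10 does not set these genes apart. The median log2 fold change (KO over Ctrl) of the 10 was 0.02, with fitted values from -0.22 (Socs1) to 0.09 (Stat6 and Jak3), and the median over all tested genes was 0. Each of the 10 had at least 1670 reads in every library, and their standard errors of 0.07 to 0.15 lay below the median of 0.11 over all tested genes in 9 of 10 cases. The 95% intervals ran from 0.676-fold (the lower bound of Socs1) to 1.21-fold (the upper bound of Stat5a, Jak1 and Jak3). A missed threshold does not show that levels were equal, and in sorted bulk cells fewer cells with a transcript and less transcript per cell cannot be told apart.

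**Figure D1:**
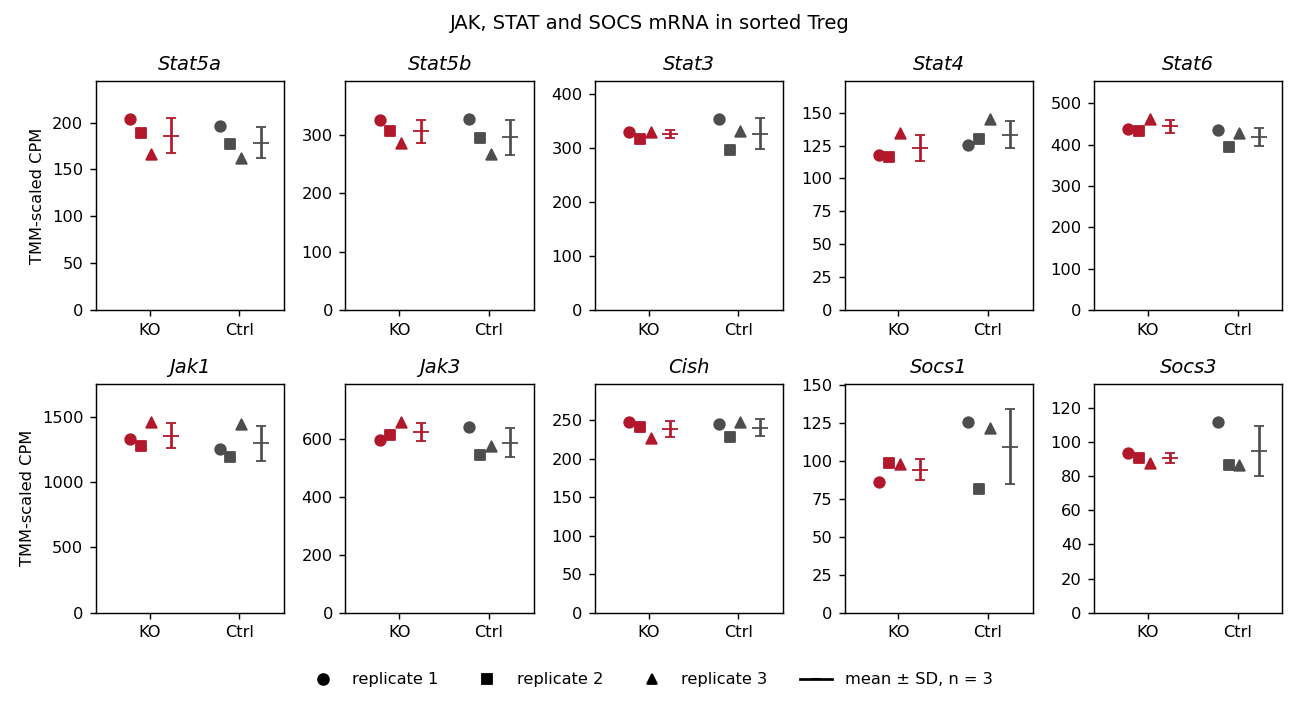
TMM-scaled CPM (linear axis from 0) of the 10 genes in each library, with KO at the left and Ctrl at the right of each panel; symbols mark the replicate number and bars the mean ± SD (n = 3). The KO and Ctrl points overlap in every panel, and Socs1 has the widest Ctrl spread, from 81.3 to 126 CPM.

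The kinases come first in the pathway. Jak1, the kinase used by gamma chain, IL-6 family and interferon receptors, had 1331, 1274 and 1459 CPM in KO replicates 1 to 3, against 1248, 1192 and 1445 CPM in Ctrl replicates 1 to 3. In both genotypes the library numbered 3 was the highest and the library numbered 2 the lowest, and Jak1 showed no call (log2 fold change 0.07 ± 0.09 (SE), 95% interval -0.15 to 0.28, adjusted p = 0.82). Jak3, the kinase bound to the common gamma chain, had 598, 614 and 659 CPM in KO replicates 1 to 3, against 641, 545 and 577 CPM in Ctrl replicates 1 to 3. Its highest library was a KO one and its lowest a Ctrl one, with the others interleaved (log2 fold change 0.09 ± 0.08 (SE), 95% interval -0.10 to 0.27, adjusted p = 0.712). Within same-numbered pairs the log2 difference of Jak3 was -0.10, 0.17 and 0.19, so pair 1 went against pairs 2 and 3.

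STAT5, in Treg the main transcription factor downstream of IL-2, is made from 2 genes. Stat5a had 204, 188 and 166 CPM in KO replicates 1 to 3, against 196, 177 and 162 CPM in Ctrl replicates 1 to 3. Stat5b had 325, 306 and 287 CPM in KO replicates 1 to 3, against 326, 295 and 267 CPM in Ctrl replicates 1 to 3. Both were highest in the libraries numbered 1 and lowest in those numbered 3 in each genotype. The log2 fold change was 0.06 ± 0.10 for Stat5a (95% interval -0.16 to 0.28, adjusted p = 0.838) and 0.05 ± 0.09 for Stat5b (-0.15 to 0.25, adjusted p = 0.866). Stat5b, Stat5a and Stat3 are neighbours on mouse chromosome 11 in the RefSeq annotation. Stat5a and Stat5b are close paralogs, and no source used here says how the counting split shared reads, so their counts were also summed. The sum was 529, 494 and 453 CPM in KO replicates 1 to 3, against 522, 472 and 429 CPM in Ctrl replicates 1 to 3 (log2 fold change 0.05 ± 0.09, adjusted p = 0.857). Stat5a made up 37.8 ± 1.0% of the summed reads in KO and 37.6 ± 0.2% in Ctrl (SD, n = 3 each), a difference smaller than the spread between libraries.

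Stat3, which carries IL-6, IL-10, IL-21 and IL-27 signals, had 329, 316 and 329.9 CPM in KO replicates 1 to 3, against 353, 295 and 331 CPM in Ctrl replicates 1 to 3. The KO values lay inside the Ctrl range (log2 fold change -0.01 ± 0.08 (SE), 95% interval -0.18 to 0.17, adjusted p = 0.987). Stat6, which carries IL-4 signals, had 438, 432 and 462 CPM in KO replicates 1 to 3, against 435, 393 and 427 CPM in Ctrl replicates 1 to 3. Of the 6 libraries, Ctrl replicate 2 was the lowest and KO replicate 3 the highest (log2 fold change 0.09 ± 0.07 (SE), 95% interval -0.07 to 0.24, adjusted p = 0.655). Within pairs the Stat6 difference was 0.01, 0.14 and 0.11, above 0 in 3 of 3. The same held for Stat5a and Jak1.

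Stat4, which carries IL-12 signals, had 118, 116 and 134 CPM in KO replicates 1 to 3, against 125, 129.7 and 145 CPM in Ctrl replicates 1 to 3. It was the 1 gene of the 10 lower in KO in all 3 same-numbered pairs, by log2 differences of -0.09, -0.16 and -0.11. The groups nonetheless overlapped, since KO replicate 3 exceeded Ctrl replicates 1 and 2, and the gene was not called (log2 fold change -0.12 ± 0.08 (SE), 95% interval -0.31 to 0.07, adjusted p = 0.604). With the replicate block in edgeR the value was -0.12 ± 0.05 (95% interval -0.24 to 0, unadjusted p = 0.0516, adjusted p = 0.225).

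Among the feedback inhibitors, Cish is the classical STAT5 target. Its RefSeq promoter, the 250 bases before and 50 bases after the annotated start, holds the STAT binding core TTCNNNGAA at 2 places (TTCCTGGAA and TTCTTGGAA), shown in capitals below beside the promoters of the other inhibitors. The core reads the same on both strands. In Socs1 the capitals mark 2 matches, GAAAGAGAAA and GAAACCGAAA, to an interferon response core (GAAA, any 2 bases, GAAA, searched on both strands), which overlap each other, and in Socs3 they mark 1 TTCNNNGAA. Positions are GRCm38.p6: Cish chr9:107296409-107296708 on the plus strand, Socs1 chr16:10785487-10785786 and Socs3 chr11:117969317-117969616 on the minus strand, each written 5′ to 3′ on the gene's strand.
Cish: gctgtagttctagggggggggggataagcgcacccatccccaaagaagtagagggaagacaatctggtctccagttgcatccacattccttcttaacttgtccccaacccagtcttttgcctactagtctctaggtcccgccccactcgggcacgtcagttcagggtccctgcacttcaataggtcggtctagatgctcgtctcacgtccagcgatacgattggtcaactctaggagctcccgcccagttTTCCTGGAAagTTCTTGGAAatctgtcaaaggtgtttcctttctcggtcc
Socs1: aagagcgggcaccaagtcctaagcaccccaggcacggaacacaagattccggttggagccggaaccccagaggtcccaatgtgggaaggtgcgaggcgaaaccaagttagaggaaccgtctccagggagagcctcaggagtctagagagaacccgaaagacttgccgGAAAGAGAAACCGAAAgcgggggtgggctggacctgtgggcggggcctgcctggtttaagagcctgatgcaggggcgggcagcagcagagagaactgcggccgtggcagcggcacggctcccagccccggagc
Socs3: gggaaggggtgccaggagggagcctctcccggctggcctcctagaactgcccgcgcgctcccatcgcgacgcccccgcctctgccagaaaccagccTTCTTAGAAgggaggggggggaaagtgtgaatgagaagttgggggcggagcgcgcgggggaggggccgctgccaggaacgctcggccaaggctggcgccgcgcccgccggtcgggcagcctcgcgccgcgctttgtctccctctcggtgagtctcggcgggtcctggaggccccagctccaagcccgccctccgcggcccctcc
Of 32851 mouse promoter windows of this length in the RefSeq table, 8.3% held TTCNNNGAA and 3.44% held the interferon response core. All 10 genes had a window in the table, 13 in all with alternative starts. Outside the inhibitors the only match was 1 interferon response core (GAAAGTGAAA) at an alternative Stat4 start. No window of the 10 genes held TTC and GAA set 4 bases apart, the spacing that STAT6 prefers (6.95% of all windows). A match describes letters and does not show binding.

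Cish, whose product blocks STAT5 docking, had 248, 241 and 227 CPM in KO replicates 1 to 3, against 245, 228 and 248 CPM in Ctrl replicates 1 to 3. KO and Ctrl libraries interleaved, with means of 239 ± 10.7 CPM in KO and 240.4 ± 10.9 CPM in Ctrl (SD, n = 3 each) and a coefficient of variation of 4.5% and 4.55%. The test gave a log2 fold change -0.01 ± 0.07 (SE), 95% interval -0.16 to 0.14, adjusted p = 0.969. The log2 ratio of Cish to summed Stat5 counts was -1.04 ± 0.05 in KO and -0.98 ± 0.16 in Ctrl, a difference within the Ctrl spread.

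Socs3, whose product inhibits receptors of the IL-6 family, had 93.6, 90.6 and 87.6 CPM in KO replicates 1 to 3, against 112, 86.3 and 86.4 CPM in Ctrl replicates 1 to 3. Ctrl replicate 1 stood above the rest, and the other 5 lay between 86.3 and 93.6 CPM (log2 fold change -0.07 ± 0.10 (SE), 95% interval -0.30 to 0.17, adjusted p = 0.837). Without Ctrl replicate 1 the value was 0.08 ± 0.07 (adjusted p = 0.608).

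Socs1, whose product inhibits JAK kinases downstream of interferon and gamma chain receptors, had the lowest fitted value of the 10. It stood at 86.3, 98.5 and 97.7 CPM in KO replicates 1 to 3, against 126, 81.3 and 121 CPM in Ctrl replicates 1 to 3. All 3 KO libraries lay below Ctrl replicates 1 and 3 but above Ctrl replicate 2, so the groups overlapped (log2 fold change -0.22 ± 0.15 (SE), 95% interval -0.56 to 0.13, adjusted p = 0.598). The differences within pairs were -0.54, 0.28 and -0.31, with pair 2 opposite to the others. Its value ranged most of the 10 with single libraries left out. It was -0.09 ± 0.15 without Ctrl replicate 1 (adjusted p = 0.828), -0.14 ± 0.17 without Ctrl replicate 3 (adjusted p = 0.821), -0.39 ± 0.08 without Ctrl replicate 2 (adjusted p = 0.13) and -0.43 ± 0.10 without both libraries numbered 2 (adjusted p = 0.221). The last 2 fits gave Socs1 an unadjusted p of 0.00172 and 0.00353. In both genotypes the library numbered 2 had the most macrophage RNA; its part in the Socs1 values was not tested.

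**Figure D2:**
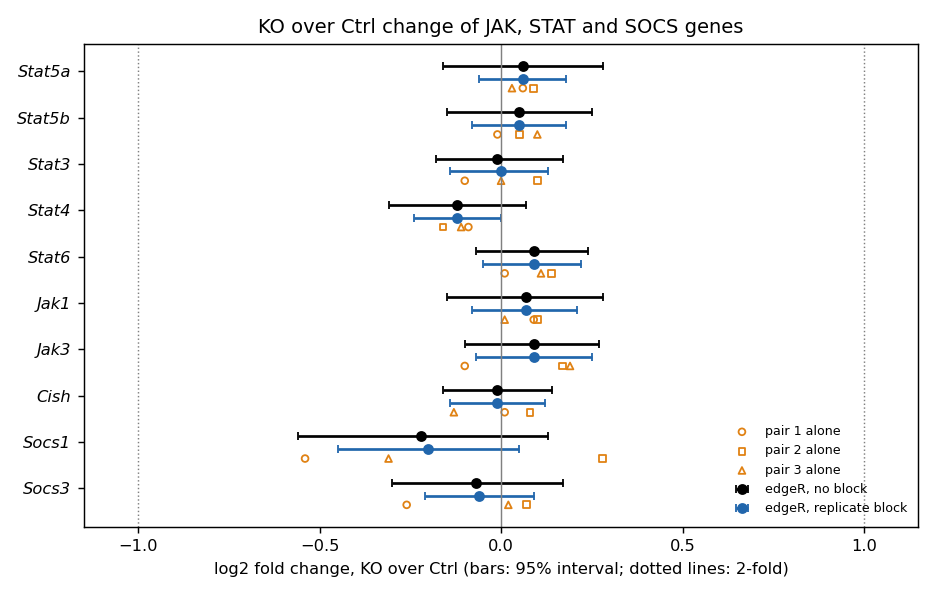
Log2 fold change (KO over Ctrl) of the 10 genes with 95% intervals from edgeR without a block (black) and with the replicate number as a block (blue), and the difference within each same-numbered pair (orange). Every interval lies inside the dotted lines that mark 2-fold, and Socs1 has the widest spread of pairs, from -0.54 to 0.28.

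Of 3 further JAK and STAT genes, Jak2, Tyk2 and Stat2, 0 were called by edgeR, DESeq2 or limma-voom (0 at an unadjusted p under 0.05 in each), with a median of 0.04. Jak2, a kinase of the IL-12 and interferon gamma receptors, had 228, 219 and 270.1 CPM in KO replicates 1 to 3, against 244, 242 and 274 CPM in Ctrl replicates 1 to 3. Tyk2, a kinase of the IL-12 and type I interferon receptors, had 208, 204 and 210.4 CPM in KO replicates 1 to 3, against 209, 199 and 193 CPM in Ctrl replicates 1 to 3. The groups overlapped for both, and their log2 fold changes were -0.08 ± 0.09 (Jak2) and 0.05 ± 0.06 (Tyk2). Of the 5 remaining SOCS genes tested, 0 were called by edgeR, DESeq2 or limma-voom, with 1 lower and 1 higher at an unadjusted p under 0.05 in edgeR. These were Socs2, a STAT5 target, at 12.1 ± 0.898 CPM in KO and 15.2 ± 2.49 CPM in Ctrl (adjusted p = 0.35), and Socs4, at 49.8 ± 5.87 CPM in KO and 43 ± 0.395 CPM in Ctrl (adjusted p = 0.375). Socs2 was named after its values were seen. Socs7 stood at 0.05 ± 0.11.

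Upstream, most receptor chains showed no call. Of the 8 chains of the common gamma family 1 was called lower and 0 higher. This was Il9r, the IL-9 receptor chain, at 1.94, 2.09 and 2.2 CPM in KO replicates 1 to 3, against 10.8, 16.1 and 8.51 CPM in Ctrl replicates 1 to 3, 5.66-fold lower in KO (log2 fold change -2.50 ± 0.25 (SE), 95% interval -3.07 to -1.93, adjusted p = 0.00343). The Il9r call held with each library left out. The 3 chains of the IL-2 receptor, chosen for their place in the pathway after their values were seen, had log2 fold changes of 0.05 ± 0.06 (Il2ra), 0.05 ± 0.09 (Il2rb) and -0.09 ± 0.07 (Il2rg), with adjusted p-values of 0.792, 0.877 and 0.667. The 8 chains had a median of 0.01.

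Of 11 other tested receptor chains 0 were called by edgeR or limma-voom and 1 by DESeq2. Il12rb1, Il10ra and Ifngr1, the last a chain of the interferon gamma receptor at -0.21, were lower at an unadjusted p under 0.05 in edgeR; the choice of these 3 was made with their values seen. The chains with the highest read counts, Il27ra and Il6st, the signal chain of the IL-6 family, stood at 0.13 ± 0.06 (adjusted p = 0.417) and 0.14 ± 0.07 (adjusted p = 0.453). Il12rb1, a chain of the IL-12 and IL-23 receptors, had 42.3, 43.4 and 34.9 CPM in KO replicates 1 to 3, against 78.7, 69.6 and 47.7 CPM in Ctrl replicates 1 to 3 (log2 fold change -0.70 ± 0.17, adjusted p = 0.12). It was called lower by DESeq2 (adjusted p = 0.00275) and with the replicate block (-0.68 ± 0.08, adjusted p = 0.000299). Il10ra, a chain of the IL-10 receptor, stood at -0.26 ± 0.11 (adjusted p = 0.364); with the block edgeR called it lower (-0.26 ± 0.05, adjusted p = 0.0174) and DESeq2 did not call it (0.0727). Without Ctrl replicate 3 Il12rb1 was called without a block too (-0.88 ± 0.11, adjusted p = 0.011).

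Most cytokine genes were below the filter on low counts: 6 of 18 passed it, of which 2 were called lower and 1 higher. Il10, a suppressive cytokine that signals through STAT3, had 0.464, 0.0487 and 0.21 CPM in KO replicates 1 to 3, against 3.73, 3.86 and 1.79 CPM in Ctrl replicates 1 to 3 (16 against 231 reads in all, adjusted p = 0.0186). With as few as 1 read in a KO library, Il10 passed the filter through its Ctrl libraries. Passing in this way favours a lower call, so its place in the counts called lower is not independent of the filter. Ifng, the type II interferon, had 1.14, 1.17 and 0.945 CPM in KO replicates 1 to 3, against 3.61, 4.73 and 2.27 CPM in Ctrl replicates 1 to 3 (adjusted p = 0.0377). Clcf1, an IL-6 family cytokine, was higher at 59.1 ± 1.2 CPM in KO and 42 ± 3.5 CPM in Ctrl (SD, n = 3 each; adjusted p = 0.02). Without KO replicate 1, 2 or 3 or Ctrl replicate 2 none of them was called (adjusted p between 0.0538 and 0.181), and without Ctrl replicate 1 Il10 and Ifng were not (0.0732 and 0.103). The Ifng call was also lost in limma-voom (adjusted p = 0.0867). Ebi3, a subunit of IL-27 and IL-35 named after its values were seen, stood at -0.98 ± 0.20 (adjusted p = 0.0547). It was called lower by DESeq2 (adjusted p = 0.000888), without the filter (0.0282) and with the block (-1.0 ± 0.13, adjusted p = 0.000878).

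Of 11 phosphatases, PIAS proteins and adaptors that restrain the pathway, 0 were called by edgeR, DESeq2 or limma-voom and 1, the phosphatase Ptpn11 at -0.16 (named after its values were seen), was lower at an unadjusted p under 0.05. Their median was 0.02 and their values lay between -0.16 and 0.14. The phosphatases Ptprc and Ptpn6, those with the highest read counts, stood at 0.02 ± 0.07 and 0.13 ± 0.08.

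**Figure D3:**
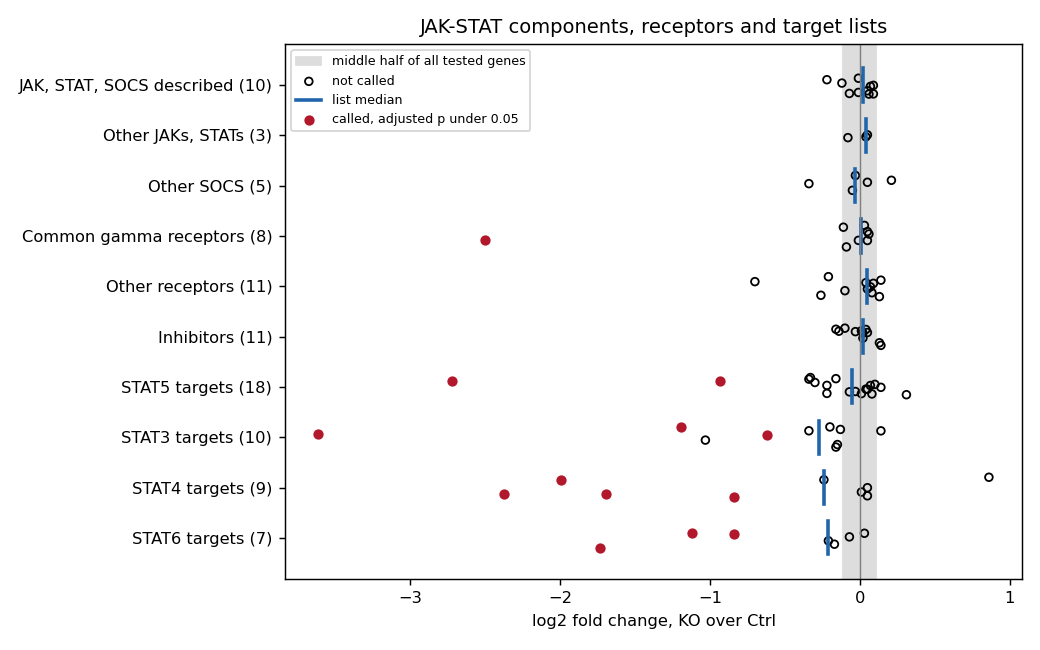
Log2 fold change (KO over Ctrl) of each tested gene in the lists of pathway components, receptors, inhibitors and STAT targets, with list medians as blue bars, called genes in red and the middle 50% of all tested genes shaded. The kinases, STATs and inhibitors lie near 0, while the called genes of the common gamma receptor list and the STAT5, STAT3, STAT4 and STAT6 target lists lie to the left of 0. The cytokine list, in which Clcf1 was called higher (0.49), is not drawn.

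Genes known as STAT targets were described by 4 lists, which were chosen with earlier results of these data known and share some genes. Counted once each, 12 of 42 tested targets were called lower and 0 higher, where 1.39% of all tested genes were called lower. Choosing lists with results known favours such a count, so the gap to this share cannot be read as a result. Il10, among the 12, passed the filter through its Ctrl libraries. The median of the 42 was -0.21. The number called lower fell to 3, 5 and 5 without KO replicates 1 to 3, to 7 without Ctrl replicate 1 and to 6 without Ctrl replicate 2, and was 12 without Ctrl replicate 3. Without both libraries numbered 2 it was 5. With all libraries, edgeR with the replicate block called 17 lower and 1 higher. DESeq2 called 15 lower and 1 higher both with and without the block, and limma-voom called 11 lower and 0 higher. Of the 12 of the main test, 8 were outside a list of 12 effector Treg markers. This list was also chosen with earlier results of these data known. All 12 of those markers were called lower in KO, a count that such a choice favours. Klrg1, 1 of them named after its values were seen, had 3 reads in KO and 418 in Ctrl. It passed the filter through its Ctrl libraries. Lying outside this short list does not set a target apart from the effector state. Those 12 markers summed to between 125 and 152 CPM in KO and between 338 and 494 CPM in Ctrl. The number of these markers called ranged from 6 (without KO replicate 1) and 7 (without KO replicate 3) to 12 with single libraries left out. Effector Treg are an activated, tissue-seeking state. What part the lower effector marker levels have in the target lists was not tested.

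STAT5 targets had 2 of 18 called lower and 0 higher, with a median of -0.05. The 2 were Gzmb, a cytotoxic granule protease, at 1.31, 1.31 and 1.1 CPM in KO replicates 1 to 3, against 6.92, 10.5 and 7.38 CPM in Ctrl replicates 1 to 3 (log2 fold change -2.72 ± 0.22, adjusted p = 0.00141), and Prdm1, the transcription factor Blimp-1, at 7.51, 8.38 and 6.93 CPM in KO replicates 1 to 3, against 14.3, 17.4 and 11.9 CPM in Ctrl replicates 1 to 3 (adjusted p = 0.0275). Both are in the effector Treg list, and the groups did not overlap. The Gzmb call held with each library left out, and that of Prdm1 was lost without any library but Ctrl replicate 3 (adjusted p between 0.078 and 0.166). With the block edgeR called 5 lower and 1 higher, and DESeq2 called 3 lower and 1 higher. The added ones in edgeR, named after their values were seen and given with the block, were Bcl2l1 (-0.30 ± 0.06, adjusted p = 0.0127), Ctla4 (-0.22 ± 0.06, 0.0432) and Tnfrsf4 (-0.33 ± 0.06, 0.00636), and on the higher side the survival gene Bcl2 (0.31 ± 0.06, 0.00837). Without the block their adjusted p-values in edgeR were 0.103, 0.535, 0.114 and 0.102. DESeq2 without the block called 4 of the list lower and 1 higher. It called Bcl2l1 (adjusted p = 0.0474), Tnfrsf4 (0.0117) and Bcl2 (0.00584), and not Ctla4 (0.598). With the block in DESeq2, Bcl2l1 and Ctla4 were not called (0.0725 and 0.0843). Bcl2 and Bcl2l1, both survival genes that STAT5 induces, thus lay on opposite sides of 0.

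STAT3 targets had 3 of 10 called lower and 0 higher, with a median of -0.27. Besides Il10, which passed the filter through its Ctrl libraries, they were the transcription factors Maf and Batf. Maf had 40.9, 43.2 and 34.3 CPM in KO replicates 1 to 3, against 94.5, 101 and 74.5 CPM in Ctrl replicates 1 to 3 (log2 fold change -1.19 ± 0.13, adjusted p = 0.00544). Batf had 24.5, 27.7 and 25.2 CPM in KO replicates 1 to 3, against 37.5, 43.5 and 37.5 CPM in Ctrl replicates 1 to 3 (adjusted p = 0.0152). All KO libraries lay below all Ctrl libraries for both factors. Maf was called whichever library was left out. The Batf call was lost without any KO library (0.115, 0.0539 and 0.0697 without KO replicates 1 to 3) or Ctrl replicate 2 (0.0566). With the block 2 more genes, named after their values were seen, were called lower: Hif1a (-0.34 ± 0.06, adjusted p = 0.00728) and Birc5 (-1.01 ± 0.17, 0.00487). Without it their adjusted p-values in edgeR were 0.106 and 0.448. DESeq2 without the block called Hif1a (adjusted p = 0.00892) and not Birc5 (0.339).

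STAT4 targets had 4 of 9 called lower and 0 higher, with a median of -0.24. Tbx21, the transcription factor T-bet, had 1.86, 1.31 and 1.31 CPM in KO replicates 1 to 3, against 5.46, 7.64 and 4.97 CPM in Ctrl replicates 1 to 3 (log2 fold change -1.99 ± 0.24, adjusted p = 0.00798), and its call held with each library left out. Il18rap, a chain of the IL-18 receptor, had 1.14, 1.07 and 1.31 CPM in KO replicates 1 to 3, against 5.03, 8.73 and 4.57 CPM in Ctrl replicates 1 to 3 (adjusted p = 0.00798, lost without KO replicate 1 at 0.066). Il18r1, its partner chain, had 30.2, 34.2 and 36.3 CPM in KO replicates 1 to 3, against 54.4, 70 and 56.3 CPM in Ctrl replicates 1 to 3 (adjusted p = 0.0105, lost without KO replicate 1 at 0.077 or 2 at 0.0578). The fourth was Ifng, whose call was lost in limma-voom (adjusted p = 0.0867). Among the 9, KO lay wholly below Ctrl in these 4, where over all tested genes 10.4% did. A gene called lower is likely to show such a gap. For Stat4 itself the groups overlapped, and it was lower in KO in all 3 same-numbered pairs. Il2ra, also on this list, stood at 0.05 ± 0.06.

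STAT6 targets had 3 of 7 called lower and 0 higher, with a median of -0.21. Ccr4, a skin-homing chemokine receptor, had 12.4, 10.7 and 8.76 CPM in KO replicates 1 to 3, against 34.5, 46.8 and 25.1 CPM in Ctrl replicates 1 to 3 (log2 fold change -1.73 ± 0.22, adjusted p = 0.00901). Nfil3, a transcription factor, had 12.4, 14.3 and 9.13 CPM in KO replicates 1 to 3, against 27.6, 29.3 and 21.3 CPM in Ctrl replicates 1 to 3 (adjusted p = 0.02). Ccr8, a chemokine receptor of tissue Treg, had 17.3, 14.8 and 13 CPM in KO replicates 1 to 3, against 29.1, 29 and 22.9 CPM in Ctrl replicates 1 to 3 (adjusted p = 0.0216). Without KO replicate 1 or 3 none of the list was called. KO lay wholly below Ctrl for the 3 genes, 2 of which (Ccr4 and Ccr8) are in the effector Treg list. The Ccr4 call was lost without any KO library (adjusted p = 0.0543, 0.0539 and 0.0514 without KO replicates 1 to 3). That of Nfil3 was lost without KO replicate 1 or 3 or Ctrl replicate 1 or 2 (between 0.0527 and 0.113), and that of Ccr8 without any library but Ctrl replicate 3 (between 0.066 and 0.102).

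**Figure D4:**
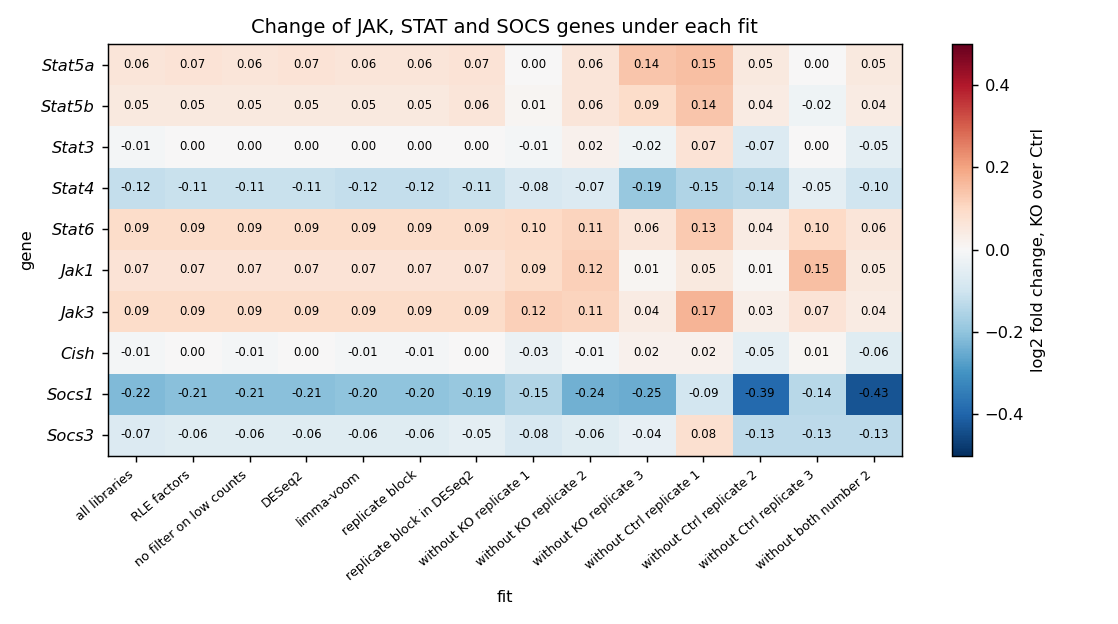
Log2 fold change (KO over Ctrl) of the 10 genes with all libraries and under each alternative scaling, filter, test, block and left-out library; colour and printed value show the same quantity. No gene moved beyond -0.43 (Socs1 without both libraries numbered 2) or 0.17 (Jak3 without Ctrl replicate 1).

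Markers of other cell types were measured beside these genes. The 11 macrophage markers had 0 called of 11 and fitted values of 0.23 to 0.46, all above 0 (0 at an unadjusted p under 0.05). Their median was 0.33 with all libraries and -0.29 without KO replicate 2, and the block called 2 of them higher, Adgre1 and Vcam1. The 6 B cell markers summed to 399.6 to 434 CPM in KO and 552 to 581 CPM in Ctrl, almost all of it Ighm. Ms4a1 was at most 1.18 CPM in any library, and Cd79b lay between 8.71 and 17.8 CPM. Of the 5 tested, 1 was called lower: Ighm, the IgM heavy chain, had 379.8, 386 and 419 CPM in KO replicates 1 to 3, against 531, 546 and 563 CPM in Ctrl replicates 1 to 3 (log2 fold change -0.47 ± 0.07, adjusted p = 0.0134). All KO libraries lay below all Ctrl libraries for Ighm, and likewise for Cd22 (-0.84 ± 0.21, adjusted p = 0.133), which the block called lower in edgeR (0.0274) and not in DESeq2 (0.153). The rest of the tested B cell markers were mixed and had overlapping groups. Cd79b stood at -0.45 ± 0.21, while Cd79a (0.14 ± 0.26) and Ms4a1 (0.49 ± 0.59) were above 0. No B cell marker was called without KO replicate 1, KO replicate 2, Ctrl replicate 2 or both libraries numbered 2. The 4 CD8 T cell and NK cell markers summed to between 13.5 and 19.1 CPM in KO and between 14.6 and 16.4 CPM in Ctrl, and 8 dendritic cell, neutrophil and erythroid markers to between 9.5 and 16.3 CPM in KO and between 8.45 and 15.2 CPM in Ctrl. Macrophages and B cells also express Jak1, Stat3, Stat6 and Socs3; their part in the levels of these genes was not tested, and without both libraries numbered 2 the values of these 4 genes lay between -0.13 and 0.06.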

How the data were processed

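Poly(A) RNA libraries of 3 KO and 3 Ctrl Treg pools were compared. The authors deposited raw read counts per Ensembl gene, made with HTSeq per the labels. HISAT2 and the builds mm10 and mm9 appear in the submitters' processing notes. Tool versions, annotation and strand setting were not given in the sources used here, so reads of overlapping antisense genes cannot be told apart. ATAC-seq samples were not analysed here. Of 22553 IDs, 22522 matched a symbol.

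The test was that of edgeR 4.0.16 (R 4.3.3): filterByExpr (minimum count 10, minimum total 15), TMM scaling, the quasi-likelihood F test without a block, and Benjamini-Hochberg adjustment over all 11990 tested genes, with calls at an adjusted p under 0.05. Standard errors were derived from the F statistic, and 95% intervals from them and the test's degrees of freedom. Alternatives were RLE factors, no filter, DESeq2 1.42.0, limma-voom 3.58.1, the replicate block, each library left out, and both libraries numbered 2 left out. The edgeR, limma-voom and DESeq2 fits without a block were run on simulated counts drawn independently for each library. That check cannot speak for data in which same-numbered libraries vary together. The table gives no transcript lengths; an order by read count is not an order by level.

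The labels give replicate numbers without saying what they mark. Deviations from the group means correlated by 0.4, 0.539 and 0.566 between KO and Ctrl libraries of the same number over genes, so same-numbered pools varied together. The main test leaves this pairing out, since the labels give the numbers no meaning. Fits with the replicate block are given as alternatives. Libraries of 1 group differed beyond sampling noise (chi-square per degree of freedom 8.75 to 27.4), so none looked like a repeat of another. P-values measure the spread between pools, which may be partly technical. In the shallowest library 3 counts equal 0.157 CPM; this covers counting error only.

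The genes and lists were chosen with earlier results of these data known. Some genes are not reported here and were left out of the list counts. Named were the 10 genes, Tfam and, per list, up to 3 called genes with the smallest p or otherwise the 2 with the highest read counts; further genes were named after their values were seen.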

Additional observations from a re-analysis of the deposited data

How the results depend on the processing

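Each of the 10 genes stayed uncalled under all 13 alternatives, and so did the summed Stat5 counts. Values near 0 changed sign when 1 library was left out: Stat3 was 0.02 without KO replicate 2 and 0.07 without Ctrl replicate 1, Cish 0.02 without KO replicate 3 or Ctrl replicate 1 and 0.01 without Ctrl replicate 3, Socs3 0.08 without Ctrl replicate 1, and Stat5b -0.02 and the Stat5 sum -0.01 without Ctrl replicate 3. Among other named genes, Il2rb was -0.02 without KO replicate 1 or Ctrl replicate 2. Without KO replicate 3, Socs7 was -0.02, Ptprc -0.03, Socs5 0.02, Socs6 0.03 and Stat2 -0.04. Without Ctrl replicate 2, Socs7 was -0.01 and Stat2 -0.05, and without Ctrl replicate 3 Stat2 was -0.05. Without both libraries numbered 2, Stat2 was -0.04. Over the single libraries left out, values ranged from -0.02 to 0.14 for Stat5b, -0.07 to 0.07 for Stat3, -0.05 to 0.02 for Cish, -0.13 to 0.08 for Socs3, -0.01 to 0.14 for the Stat5 sum, -0.02 to 0.16 for Socs7, -0.03 to 0.06 for Ptprc, -0.02 to 0.12 for Il2rb, -0.07 to 0.02 for Socs5, -0.09 to 0.03 for Socs6 and -0.05 to 0.26 for Stat2. The cause was not tested.

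Over all genes 167 were called lower and 12 higher. The counts were higher with the replicate number as a pairing term: with the replicate block edgeR called 526 lower and 236 higher and DESeq2 300 lower and 138 higher, and in edgeR the block ended no call of a gene named here. Without the block the counts were 264 lower and 76 higher in DESeq2, and 3 genes were higher in limma-voom. With 1 library left out the lower calls ranged from 26 (without KO replicate 1) to 166 and the higher calls from 0 to 10. Without both libraries numbered 2, 54 were lower and 0 higher.

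The smallest count of the 10 genes in a library was 1670. Each group has 3 pools, and the replicate spread is estimated from these.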
